A study of Mus musculus with 6 samples.

Results

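The genes of the mitochondrial respiratory chain were followed in lymph nodes of Rag2/pfp double knockout mice (3 arrays), deficient in Rag2 and in perforin (gene Prf1), and of wild-type mice (3 arrays). They were chosen by symbol: every probe whose platform gene symbol starts with Nduf, Uqcr, Cox4, Cox5, Cox6, Cox7, Cox8 or Atp5, or is Sdha, Sdhb, Sdhc, Sdhd, Cycs or Cyc1. That gave 110 of 25697 probes and 87 of 16593 genes on the Illumina Mouse Ref-8 v2 BeadChip, a 1-colour bead array to which biotin-labelled copies of total RNA were hybridised. RNA came from lymph node tissue, so fewer cells of a type and less RNA per cell cannot be told apart. Both knockouts are carried by the first group and neither by the second, and no treatment is labelled. Rag2 knockout mice form no mature B or T cells and keep natural killer cells, which here lack perforin. Strain, age, the node taken and whether each replicate is a different animal are not stated in the labels, so the p-values rest on a spread that may be technical. The extraction text, alike for all 6 samples, names the Rag2/pfp mouse also for the arrays labelled wild type, and the groups follow the genotype label.

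The respiratory chain passes electrons from NADH (complex I) and succinate (complex II) through complex III and the small carrier cytochrome c to oxygen at complex IV, and pumps protons across the inner mitochondrial membrane on the way. ATP synthase, complex V, lets the protons back and makes ATP. Nearly all subunits come from nuclear genes, which every nucleated cell uses, and activated, dividing lymphocytes are known to raise their respiratory capacity. Some complex IV subunits and the c subunit of ATP synthase are encoded by more than 1 gene, with forms typical of heart, skeletal muscle, brown fat, lung or testis beside a widely expressed form.

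Between 51.3% and 56.3% of all probes were detected (detection p under 0.05) on each array. The targeted transcripts gave no check of the genotype, since the Rag2 probe went undetected on all 6 arrays and both Prf1 probes were detected on all 6 arrays and not called, with log2 changes of 0.35 and -0.14 (limma adjusted p = 0.439 and 0.804). Whether the Prf1 probes lie in the disrupted part of the gene is not given. Of 10 tested B cell markers 10 fell, of 12 T cell markers 10 fell, and 9 of 9 tested cell division genes fell. Of macrophage markers 3 of 10 rose, of erythroid markers 1 of 3 rose, and of 9 lymph node stroma markers 1 rose and 2 fell. Over all 9973 genes tested, 17.3% fell and 10.2% rose. Markers of salivary and other exocrine glands stood apart on 1 array: the mean level of 12 gland genes was 12.42, 15.12 and 14.23 on the knockout arrays, against 5.84, 12.84 and 5.76 on wild-type replicates 1, 2 and 3 (normalized log2), and 2 of the 12 rose. Wild-type replicate 2 thus read like the knockout for these genes, and the members whose call changes without it are named below. A probe was tested if it was detected on at least 3 of the 6 arrays, and levels are background-corrected, quantile-normalized log2 intensities. A probe detected in only 1 group enters the test through that group, so its call follows in part from the filter. Among the 80 genes Cox4i2 was the 1 member detected on fewer than 6 arrays. A gene was called at a limma adjusted p under 0.05, two-sided, after adjustment over all 14378 probes tested.

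Most respiratory chain genes had small log2 changes in the knockout nodes, and 15 were called. Of the 87 genes, 80 were tested, each represented by its brightest detected probe. Of these, 10 fell (Ndufa10, Ndufb5, Ndufaf1, Sdhd, Uqcrb, Cox6a1, Cox6c, Cox7a2, Atp5a1 and Atp5g3) and 5 rose (Ndufs5-ps, Sdhc, Cox4i2, Atp5g2 and Atp5l). That is 18.8% called, where 27.5% of all 9973 genes tested were called, 17.3% lower and 10.2% higher in the knockout. The median log2 change, knockout minus wild type, was 0.05 (quartiles -0.25 and 0.27), against 0.03 (quartiles -0.50 and 0.55) over all genes tested. A change under 0.5 on the log2 scale was measured for 60 of the 80 genes (75%), against 48% of all genes. The 95% interval of the change lay wholly within a 2-fold difference either way for 63 of the 80 genes (78.8%), against 42.4% of all genes. The median SE was 0.174 for the 80 genes and 0.225 for all genes tested, and a smaller SE gives a narrower interval. Median intensity by array was 2625.8 to 3516.1 over the member probes and 134.1 to 206.7 over all probes, detected or not. The part of signal level in these shares was not tested. Every knockout array lay below every wild-type array for 16 of the 80 genes, where 26.0% of all genes did so, and above for 21, where 21.3% did so. No test was made of whether these shares differ from those of other genes.

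**Figure D1:**
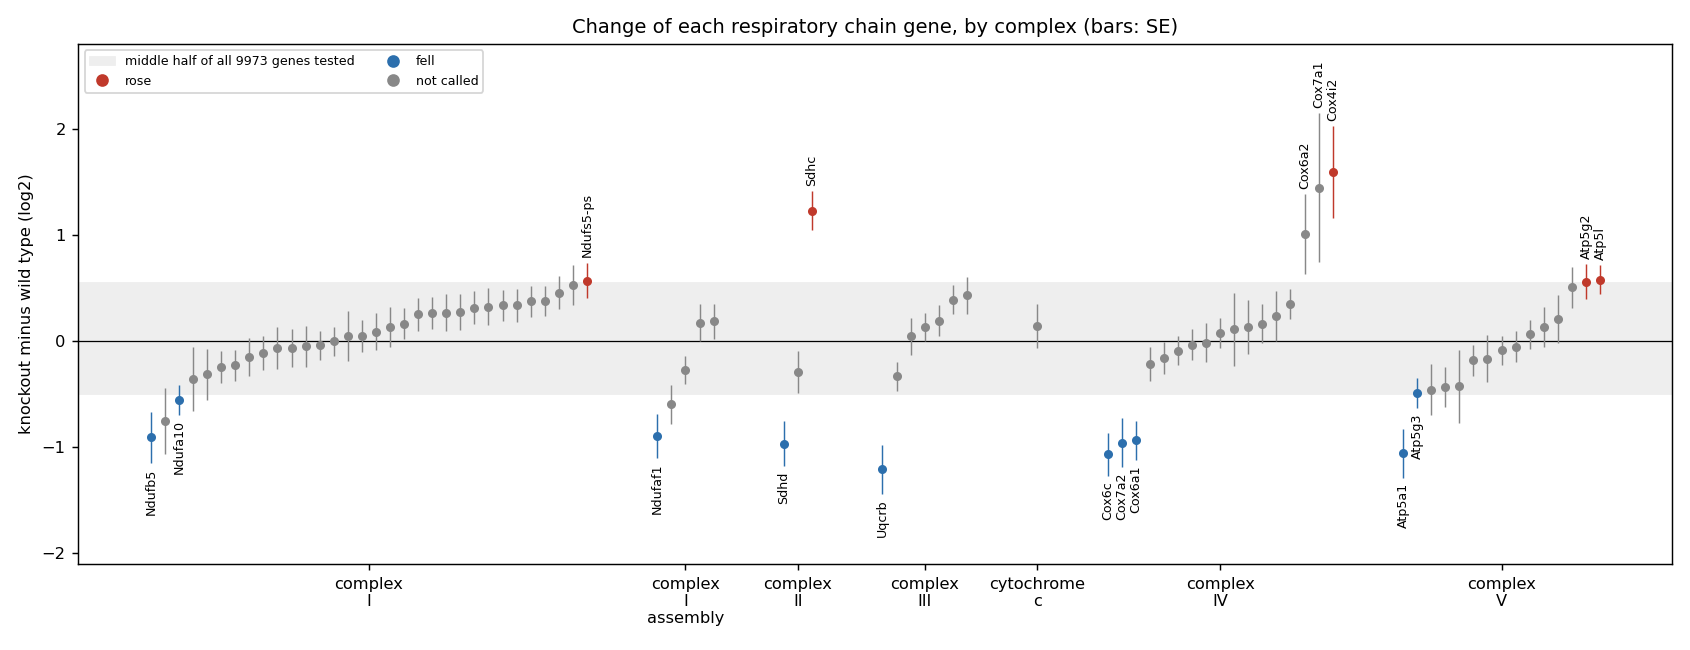
Log2 change, knockout minus wild type, of each of the 80 respiratory chain genes tested, sorted within its complex; bars are standard errors from limma, and the grey band runs from the lower to the upper quartile of all 9973 genes tested. Most genes lie within the band from -0.50 to 0.55, and the 10 that fell reach -1.21 (Uqcrb). Of the genes called as higher, Cox4i2, at 1.59, and Sdhc, at 1.23, have the largest changes. Cox4i2 was detected on only 1 wild-type array, so its value rests in part on background signal.

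The calls rested on few arrays. For each of the 15, all knockout arrays lay on the same side of all wild-type arrays. Leaving out any 1 array could thus not change their direction. Of the 15 calls, 3 were kept without knockout replicate 1, 7 without knockout replicate 2 and 2 without knockout replicate 3. Leaving out a wild-type array kept 7 calls (replicate 1), 15 (replicate 2) or 2 (replicate 3). Of the 15, Sdhc alone was called in each of these 6 fits. Over all 9973 genes tested, 17.3% fell and 10.2% rose on all arrays. These shares were 11.3% and 4.6% without knockout replicate 1, 9.2% and 4.0% without replicate 2, and 8.2% and 3.3% without replicate 3. They were 10.3% and 4.7% without wild-type replicate 1, 23.0% and 20.4% without replicate 2, and 9.1% and 4.7% without replicate 3. Without wild-type replicate 2, 4 genes not called on all arrays passed the test: Ndufa12 at 0.63 (limma adjusted p = 0.043), Ndufv3 at 0.57 (limma adjusted p = 0.025), Ndufaf4 at -0.70 (limma adjusted p = 0.028) and Cox7a1 at 2.18 (limma adjusted p = 0.010). Against wild-type replicate 2 alone, which assumes that this 1 array varies like the knockout arrays, the direction of the 15 could not change either. There the log2 change was -1.53 for Uqcrb and 2.31 for Cox4i2. The Cox4i2 probe was not detected on that array and entered the test through the knockout arrays.

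Complex I, NADH dehydrogenase, is the largest enzyme of the chain. Of its 34 genes on the array 32 were tested, with a median log2 change of 0.07; 2 fell and 1 rose. The 5 tested genes of its catalytic core, the flavoprotein subunits Ndufv1 and Ndufv2 and the iron-sulfur or core subunits Ndufs3, Ndufs7 and Ndufs8, had log2 changes from -0.15 to 0.38 (SE 0.14 to 0.18). Limma called 0 of them at an adjusted p under 0.05, and 1 at an unadjusted p under 0.05, higher in the knockout. Among the accessory subunits, which surround the core, Ndufa10 read 12.65, 12.72 and 12.61 on the knockout arrays, against 13.08, 13.28 and 13.28 on the wild-type arrays. Its groups did not overlap, and it fell (log2 change -0.55, SE 0.14, limma adjusted p = 0.032). Ndufb5, of the proton-pumping arm, read 8.18, 8.88 and 8.61 on the knockout arrays, against 9.15, 9.56 and 9.68 on the wild-type arrays. All 3 knockout arrays were lower, and the gene fell (log2 change -0.91, SE 0.24, limma adjusted p = 0.036). Both calls were lost with some arrays left out, where the adjusted p reached 0.115 for Ndufa10 and 0.109 for Ndufb5.

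The other Ndufa genes ranged from -0.31 to 0.53 on the log2 scale and the other Ndufb genes from -0.75 to 0.34. Ndufa13, also known as GRIM-19, had the highest mean signal of the complex and read 14.64 ± 0.03 on average on the knockout arrays and 14.68 ± 0.10 on the wild-type arrays (SD, n = 3 each). Its change of -0.04 had a 95% interval of -0.37 to 0.29. In 12 of the 32 complex I genes every knockout array lay above every wild-type array, and in 4 below, where 21.3% of all genes tested lay above and 26.0% below. Of those 12 only Ndufs5-ps was called. It read 11.91, 12.32 and 12.02 on the knockout arrays, against 11.39, 11.55 and 11.58 on the wild-type arrays and rose (log2 change 0.57, SE 0.17, limma adjusted p = 0.048), with an adjusted p of up to 0.135 when 1 array was left out. The symbol is that of a processed copy of Ndufs5, whose sequence is near-identical to its parent gene, so the signal cannot be assigned to either with certainty. Ndufs1 and Ndufab1 were not tested, because the Ndufs1 probe went undetected on all 6 arrays and the Ndufab1 probe was detected on no knockout array and on 2 wild-type arrays.

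Complex I is built with the help of assembly factors that are no part of the finished enzyme. Of 5 tested, 1 fell and 0 rose by limma (2 lower and 0 higher at an unadjusted p under 0.05). Ndufaf1, a chaperone of the membrane arm, read 9.61, 9.88 and 9.40 on the knockout arrays, against 10.74, 10.23 and 10.62 on the wild-type arrays. The knockout arrays were all lower, and the gene fell (log2 change -0.90, SE 0.21, limma adjusted p = 0.024). The adjusted p reached 0.089 with 1 array left out. Ndufaf4, with the highest mean signal of the 5, was also lower on every knockout array, with a change of -0.60 that did not pass the test (SE 0.19, limma adjusted p = 0.056). For both genes wild-type replicate 2 was the lowest of the wild-type arrays, and without it the change of Ndufaf4 was -0.70, past the test (limma adjusted p = 0.028).

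Complex II, succinate dehydrogenase, also works in the citric acid cycle, and its membrane anchor is made of the subunits SDHC and SDHD. The transcripts of these anchor partners moved in opposite directions. Sdhc read 12.75, 13.20 and 12.96 on the knockout arrays, against 11.60, 11.95 and 11.68 on the wild-type arrays. The lowest knockout array lay well above the highest wild-type array, and Sdhc rose 2.34-fold (log2 change 1.23, SE 0.19, limma adjusted p = 0.0071). With 1 array left out its adjusted p was at most 0.035. Sdhd read 7.29, 7.18 and 7.84 on the knockout arrays, against 8.26, 8.50 and 8.45 on the wild-type arrays. It fell (log2 change -0.97, SE 0.21, limma adjusted p = 0.021), and the adjusted p reached 0.071 with 1 array left out. Sdhb, the iron-sulfur subunit, had log2 changes of -0.29 and -0.10 on 2 probes, neither called. Another Sdhc probe and another Sdhb probe went undetected on all 6 arrays. Sdha is not analysed here.

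In complex III, cytochrome bc1, Uqcrb had the largest fall of all 80 genes. This subunit binds ubiquinone near the catalytic centre. It read 9.12, 9.53 and 9.27 on the knockout arrays, against 10.12, 10.84 and 10.59 on the wild-type arrays. The highest knockout array was below the lowest wild-type array, and Uqcrb fell (log2 change -1.21, SE 0.23, limma adjusted p = 0.014), to 0.432 times the wild-type level. The adjusted p reached 0.056 with 1 array left out and was 0.043 against wild-type replicate 2 alone. The other 3 small subunits tested (Uqcrh, Uqcr10 and Uqcr11) had log2 changes between 0.13 and 0.43 and did not pass the test. The core proteins, Uqcrc1 and Uqcrc2, had changes of 0.39 and -0.33 without overlap between the groups in either, and neither was called. Uqcr10 had the highest mean signal and read 14.38 ± 0.07 on average on the knockout arrays and 14.25 ± 0.02 on the wild-type arrays (SD, n = 3 each). Cyc1, the haem-bearing cytochrome c1, changed by 0.04. The probes for Uqcrfs1, the Rieske protein, and Uqcrq went undetected on all 6 arrays.

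Cytochrome c, encoded by Cycs, also triggers caspase activation when it leaves the mitochondrion. The brighter of its 2 probes read 6.71, 7.20 and 6.96 on the knockout arrays, against 7.07, 6.57 and 6.80 on the wild-type arrays. The groups overlapped. The change was 0.14 on that probe and -0.33 on the dimmer one (SE 0.21 and 0.27), with opposite signs, and limma called neither (limma adjusted p = 0.615 and 0.375).

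Complex IV, cytochrome c oxidase, held 3 of the 10 falls, all in widely expressed small subunits. Of 19 genes 17 were tested. Cox6c read 11.39, 11.93 and 11.46 on the knockout arrays, against 12.47, 12.74 and 12.77 on the wild-type arrays. The groups did not overlap, their means lay about 1 log2 unit apart, and Cox6c fell (log2 change -1.07, SE 0.20, limma adjusted p = 0.013). Cox6a1, the widely expressed form of subunit 6a, read 12.42, 12.75 and 12.31 on the knockout arrays, against 13.24, 13.54 and 13.51 on the wild-type arrays. It fell on both of its probes (log2 change -0.94, SE 0.18, limma adjusted p = 0.015), by 0.64 on the dimmer one (limma adjusted p = 0.046). Cox7a2, the widely expressed form of subunit 7a, read 8.03, 8.73 and 8.26 on the knockout arrays, against 9.07, 9.43 and 9.39 on the wild-type arrays. Again no knockout array reached the wild-type range, and Cox7a2 fell (log2 change -0.96, SE 0.23, limma adjusted p = 0.026). With 1 array left out the adjusted p reached 0.057 for Cox6c, 0.062 for Cox6a1 and 0.091 for Cox7a2.

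The other 9 widely expressed subunits of the enzyme had log2 changes from -0.22 to 0.35 and none was called; 1 of the 9, Cox6b1, passed an unadjusted p under 0.05. Cox4i1, the subunit with the highest mean signal, read 14.48 ± 0.06 on average on the knockout arrays and 14.51 ± 0.13 on the wild-type arrays (SD, n = 3 each), a change of -0.03 with a 95% interval of -0.38 to 0.32. Cox6b1 read 14.55, 14.77 and 14.64 on the knockout arrays, against 14.28, 14.35 and 14.28 on the wild-type arrays. It was higher on every knockout array, but the change did not pass the test (log2 change 0.35, SE 0.14, limma adjusted p = 0.104). Cox8a changed by 0.07, with a 95% interval of -0.27 to 0.42. Cox7a2l, which helps to join complexes III and IV into a supercomplex, changed by -0.22 (95% interval -0.61 to 0.17).

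**Figure D2:**
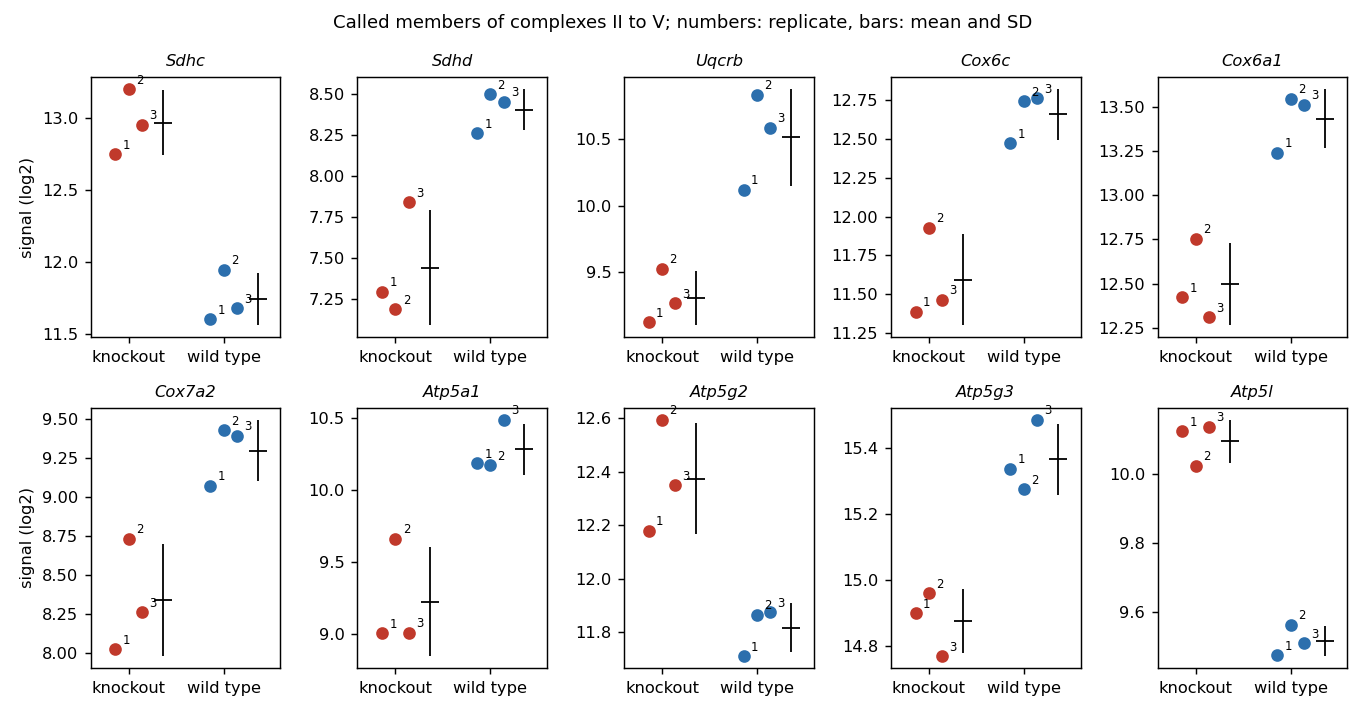
Normalized log2 signal (vertical axes, ranges differ between panels) of 10 of the 11 called members of complexes II to V (Cox4i2 is plotted with the isoforms) on each array, knockout left and wild type right; numbers are replicates and bars the mean and SD of 3 arrays. In each of the 10 panels the groups do not overlap: Sdhc, Atp5g2 and Atp5l are higher and the other 7 genes lower in the knockout.

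The tissue-restricted forms of complex IV subunits had positive log2 changes in all 5 cases tested, from 0.11 to 1.59, and 1 of the 5 was called. Cox4i2, a form of subunit 4 known from lung and from mural cells of blood vessels, read 7.30, 7.58 and 7.23 on the knockout arrays, against 5.51, 5.06 and 6.76 on the wild-type arrays. It was detected on all 3 knockout arrays and on 1 wild-type array, replicate 3, which was also the closest to the knockout range, without reaching it. Its linear intensities before background correction and normalization were 225.9, 230 and 220.6 on the knockout arrays, against 180.7, 143 and 243.2 on the wild-type arrays, and these overlapped. Cox4i2 was called as higher (log2 change 1.59, SE 0.43, limma adjusted p = 0.038), but the probe entered the test through the knockout arrays and 2 of the 3 wild-type values are at background, so no fold is given. The change was 0.78 with the authors' values, the adjusted p was 0.062 with no detection filter, and it reached 0.113 with 1 array left out. Cox6a2, the heart and skeletal muscle form of subunit 6a, which plasmacytoid dendritic cells also transcribe, read 10.19, 9.28 and 10.34 on the knockout arrays, against 9.36, 8.36 and 9.07 on the wild-type arrays. Knockout replicate 2 fell below wild-type replicate 1, so the groups overlapped, and the change did not pass the test (log2 change 1.01, SE 0.38, limma adjusted p = 0.090).

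Cox7a1, the muscle and brown fat form of subunit 7a, read 8.28, 9.78 and 8.73 on the knockout arrays, against 6.94, 8.96 and 6.56 on the wild-type arrays. Wild-type replicate 2 lay inside the knockout range, about 2 log2 units above the other wild-type arrays. The change was 1.44 (SE 0.70, limma adjusted p = 0.159) on all arrays. It was 2.18 without wild-type replicate 2 (limma adjusted p = 0.010) and -0.03 against that array alone (limma adjusted p = 0.981). The exocrine gland genes were high on the same 4 arrays, and so was Ckmt1, the ubiquitous mitochondrial creatine kinase, with 11.51, 13.78 and 12.57 on the knockout arrays and 5.07, 12.71 and 5.16 on the wild-type arrays, also without a call (limma adjusted p = 0.116). Ppargc1a, a coactivator of mitochondrial biogenesis, read 7.84, 9.49 and 9.10 on the knockout arrays, against 6.18, 9.56 and 6.25 on the wild-type arrays, and was not called (limma adjusted p = 0.277). The part of the gland signal in the values of Cox7a1, Ckmt1 and Ppargc1a was not tested.

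Cox8b, a heart, muscle and brown fat form of subunit 8, had a change of 0.13 and Cox6b2, known from testis, of 0.11 (SE 0.25 and 0.35). Neither was called, and both changed sign without wild-type replicate 2, at -0.09 and -0.09. Cox7b2 and Cox8c, also known from testis, went undetected on all 6 arrays.

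**Figure D3:**
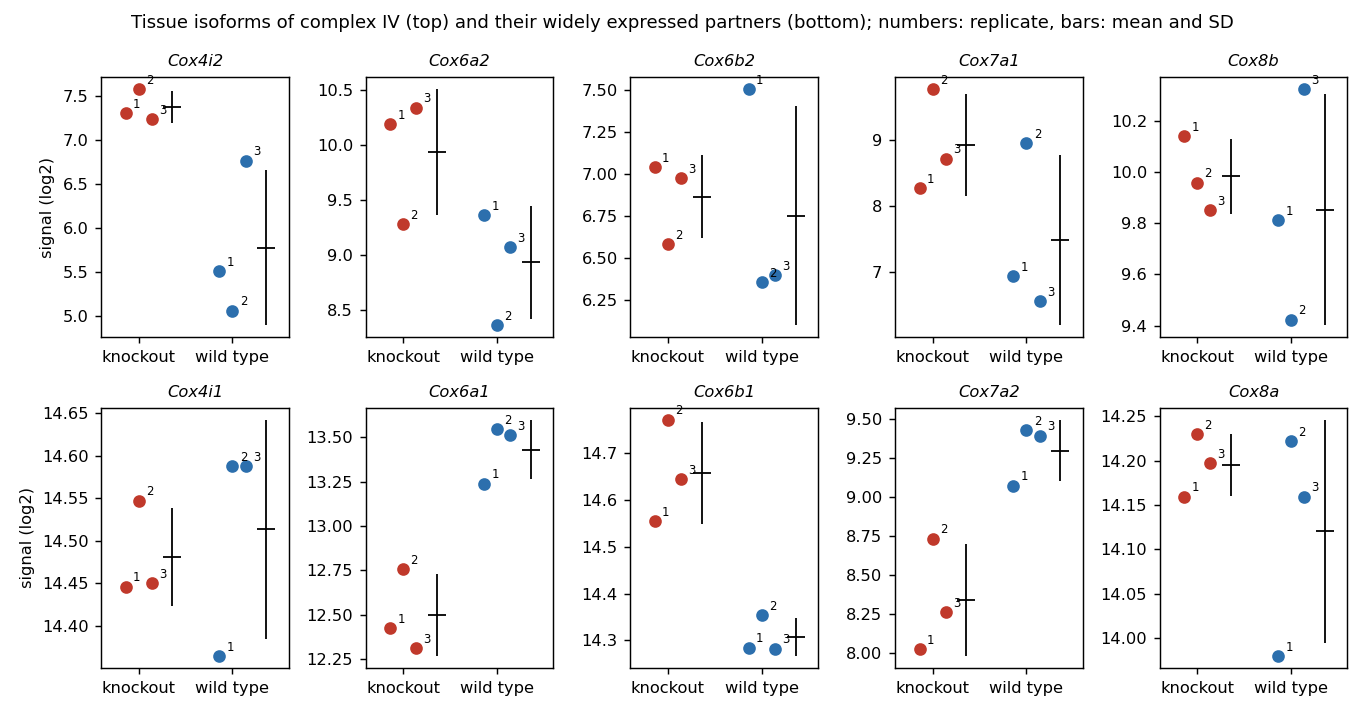
Normalized log2 signal (vertical axes, ranges differ between panels) of tissue isoforms of complex IV subunits, top row, and of their widely expressed partners, bottom row, on each knockout (left) and wild-type (right) array; numbers are replicates and bars the mean and SD of 3 arrays. Cox6a1 and Cox7a2 are lower on all knockout arrays, and Cox7a1 on wild-type replicate 2, at 8.96, lies within the knockout range of 8.28 to 9.78.

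Within an array, the log2 difference between the probes of a tissue form and its partner shows whether they changed unequally, not which level was higher. For Cox6a2 minus Cox6a1 it was -2.23, -3.48 and -1.97 on the knockout arrays, against -3.88, -5.19 and -4.44 on the wild-type arrays, without overlap. For Cox7a1 minus Cox7a2 it was 0.25, 1.05 and 0.46 on the knockout arrays, against -2.13, -0.47 and -2.83 on the wild-type arrays, also without overlap. The knockout mean of this difference was higher by 1.94 for subunit 6a, by 2.40 for subunit 7a and by 1.63 for subunit 4. Each of these had an exact two-sided permutation p of 0.1 (0.129 adjusted over the 9 pairs compared), and 0.1 is the smallest p that 3 arrays against 3 allow. The subunit 4 difference uses Cox4i2, whose probe entered the test through the knockout arrays. Only 1 wild-type array detected it, so that shift and its p rest in part on background signal. The shift was 0.05 for subunit 8 and -0.24 for subunit 6b (exact permutation p = 0.9 and 0.8). Other pairs also reached an exact permutation p of 0.1, so this was not particular to tissue forms. Cox7a2l minus Cox7a2, both widely expressed, shifted by 0.74. Among the c subunit genes of ATP synthase, Atp5g1 minus Atp5g2 shifted by -0.35, Atp5g1 minus Atp5g3 by 0.70 and Atp5g2 minus Atp5g3 by 1.05.

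Markers of the tissues in which these forms are typical moved only in part. Of 25 skeletal muscle markers on the array 10 were tested; 3 rose and 2 fell. The mean level of the 10 was 8.47, 7.90 and 7.94 on the knockout arrays, against 7.88, 7.56 and 7.43 on the wild-type arrays. Muscle enolase Eno3 rose (log2 change 1.46, SE 0.26, limma adjusted p = 0.011) and fast troponin I, Tnni2, rose (log2 change 1.11, SE 0.29, limma adjusted p = 0.033). The fast myosin light chain Mylpf, detected on 1 knockout array and 3 wild-type arrays, was called as lower (log2 change -0.92, SE 0.25, limma adjusted p = 0.040). The defining markers Ckm, Myh1, Myh4, Myh7, Tnnt3, Tnnc2, Mb and Pvalb were detected on too few arrays to be tested. Of 8 brown fat markers 4 were tested and limma called 0 (0 also at an unadjusted p under 0.05), and Ucp1, Elovl3 and Dio2 were not tested for the same reason. The 4 had a median log2 change of 1.143, and their mean level was 7.94, 8.86 and 8.25 on the knockout arrays, against 7.22, 7.89 and 7.45 on the wild-type arrays, highest in wild type on replicate 2. Among the 4 were Ppargc1a, with the largest change at 1.48, and Pank1. Both read higher on wild-type replicate 2 than on the other wild-type arrays, as did the gland genes. The part of the gland signal in these values was not tested. Of 15 adipocyte markers tested 6 rose and 1 fell, and for 9 of the 15 every knockout array lay above every wild-type array. Over all genes tested 10.2% rose and 17.3% fell, and for 21.3% every knockout array lay above every wild-type array. The part of muscle or fat tissue in the isoform values was not tested.

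Complex V makes ATP in its F1 head, in which alpha and beta subunits alternate in a ring. The transcript of the alpha subunit, Atp5a1, was lower in the knockout while that of the beta subunit, Atp5b, was not called. Atp5a1 read 9.005, 9.66 and 9.01 on the knockout arrays, against 10.18, 10.17 and 10.49 on the wild-type arrays. The groups did not overlap, and Atp5a1 fell (log2 change -1.06, SE 0.23, limma adjusted p = 0.020), with an adjusted p of up to 0.078 when 1 array was left out. Atp5b, with the highest mean signal of the complex, read 15.55 ± 0.09 on average on the knockout arrays and 15.64 ± 0.06 on the wild-type arrays (SD, n = 3 each), a change of -0.09 with a 95% interval of -0.42 to 0.25. The other F1 subunits, Atp5c1, Atp5d and Atp5e, had log2 changes between -0.46 and 0.51 and were not called.

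The membrane ring of c subunits is encoded by 3 genes, Atp5g1, Atp5g2 and Atp5g3, whose mature proteins are the same and which differ in the targeting peptide that is cut off on import. These genes did not move together. Atp5g2 read 12.18, 12.59 and 12.35 on the knockout arrays, against 11.71, 11.87 and 11.87 on the wild-type arrays, and rose (log2 change 0.56, SE 0.17, limma adjusted p = 0.049). Atp5g3 read 14.90, 14.96 and 14.77 on the knockout arrays, against 15.34, 15.27 and 15.49 on the wild-type arrays, and fell (log2 change -0.49, SE 0.14, limma adjusted p = 0.049). Atp5g1 read 12.99, 13.72 and 13.25 on the knockout arrays, against 12.93, 13.16 and 13.25 on the wild-type arrays, with overlapping groups and no call (log2 change 0.21, SE 0.23, limma adjusted p = 0.502). The within-array difference Atp5g2 minus Atp5g3 was -2.72, -2.37 and -2.42 on the knockout arrays, against -3.63, -3.41 and -3.61 on the wild-type arrays, a shift of 1.05 (exact permutation p = 0.1, 0.129 adjusted over the 9 pairs). Both calls were lost with some arrays left out, with adjusted p of up to 0.140 for Atp5g2 and 0.161 for Atp5g3.

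Among the remaining subunits, Atp5l, subunit g of the membrane part, read 10.13, 10.02 and 10.14 on the knockout arrays, against 9.48, 9.56 and 9.51 on the wild-type arrays. These were tight groups, and Atp5l rose 1.49-fold (log2 change 0.58, SE 0.13, limma adjusted p = 0.024), with an adjusted p of up to 0.093 when 1 array was left out. The 4 peripheral stalk genes (Atp5pb, Atp5h, Atp5j and Atp5o) had log2 changes between -0.43 and 0.13, and limma called 0 of them (0 also at an unadjusted p under 0.05). Atp5j2, subunit f, chosen after its values were seen, read 14.42, 13.24 and 14.45 on the knockout arrays, against 14.34, 14.50 and 14.54 on the wild-type arrays. Knockout replicate 2 was lower than the other 5 arrays by more than 1 log2 unit, and the gene was not called (log2 change -0.42, SE 0.34, limma adjusted p = 0.368). The Atp5k probe went undetected on all 6 arrays.

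The upstream sequences of the 3 c subunit genes and of Cox6a1, Cox7a1 and Cox7a2 are shown, since these genes differed from their isoforms in their changes and NRF-1 and the ETS factor GABP are known regulators of respiratory chain genes. Each is the 250 bases before the annotated start, 5′ to 3′ on the gene's strand, from RefSeq on GRCm38.p6. Capitals mark matches on either strand to an NRF-1 motif (GCGC, any base, then TGCGC) or an ETS motif (CCGGAAG). The array files name no genome build, and no position of a probe is given. For Cox4i1, Cox4i2 and Cox6a2 no sequence is shown.
Atp5g1 (chr11:96075632-96075881, minus strand): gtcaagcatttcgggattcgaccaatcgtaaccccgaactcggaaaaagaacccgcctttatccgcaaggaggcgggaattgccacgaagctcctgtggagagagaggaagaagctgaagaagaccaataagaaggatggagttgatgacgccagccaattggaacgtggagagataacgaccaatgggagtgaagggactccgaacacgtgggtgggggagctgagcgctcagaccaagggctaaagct
Atp5g2 (chr15:102671048-102671297, minus strand): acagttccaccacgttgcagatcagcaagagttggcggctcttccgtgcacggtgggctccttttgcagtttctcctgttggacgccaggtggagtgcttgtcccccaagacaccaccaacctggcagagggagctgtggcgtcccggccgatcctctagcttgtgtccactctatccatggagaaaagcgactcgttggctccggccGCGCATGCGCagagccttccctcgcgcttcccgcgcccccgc
Atp5g3 (chr2:73911327-73911576, minus strand): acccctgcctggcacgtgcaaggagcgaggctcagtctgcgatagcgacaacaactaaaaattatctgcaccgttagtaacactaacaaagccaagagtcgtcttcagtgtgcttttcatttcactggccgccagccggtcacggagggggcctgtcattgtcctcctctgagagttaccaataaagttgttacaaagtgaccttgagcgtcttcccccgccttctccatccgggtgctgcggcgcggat
Cox6a1 (chr5:115348959-115349208, minus strand): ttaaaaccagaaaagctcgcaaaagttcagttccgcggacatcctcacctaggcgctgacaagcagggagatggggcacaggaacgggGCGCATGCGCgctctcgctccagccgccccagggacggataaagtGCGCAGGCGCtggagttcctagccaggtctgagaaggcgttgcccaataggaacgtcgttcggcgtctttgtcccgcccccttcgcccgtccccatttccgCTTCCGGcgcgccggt
Cox7a1 (chr7:30183921-30184170, plus strand): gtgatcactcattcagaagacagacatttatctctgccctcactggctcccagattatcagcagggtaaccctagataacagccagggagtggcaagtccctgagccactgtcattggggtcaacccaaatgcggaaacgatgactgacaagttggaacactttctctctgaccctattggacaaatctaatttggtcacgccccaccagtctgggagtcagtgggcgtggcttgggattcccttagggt
Cox7a2 (chr9:79759854-79760103, minus strand): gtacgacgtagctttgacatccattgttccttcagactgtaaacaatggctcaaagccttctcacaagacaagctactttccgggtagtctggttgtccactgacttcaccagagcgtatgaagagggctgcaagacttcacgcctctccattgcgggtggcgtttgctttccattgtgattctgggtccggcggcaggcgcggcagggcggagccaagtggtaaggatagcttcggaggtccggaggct

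Of these 6 windows, that of Atp5g2 held an NRF-1 match and that of Cox6a1 held both NRF-1 and ETS matches, so a gene that rose and a gene that fell each had an NRF-1 match. Over the 67 respiratory chain genes tested that had a sequence, 10 (14.9%) held the NRF-1 motif, against 4.23% of all 27025 genes with a sequence. The ETS motif was present in 13 (19.4%), against 7.83% of all. The E-box CANNTG was present in 43 (64.2%), against 69.3%. The members were all detected and tested here, while the comparison takes every gene with a sequence, tested or not, so the sets are unlike. The motifs were searched on both strands, and none of the 3 contains another. Among the genes with a sequence, 3 of 7 that fell, 1 of 2 that rose and 9 of 58 not called held the ETS motif. For the NRF-1 motif these counts were 2 of 7, 1 of 2 and 7 of 58. For the E-box they were 3 of 7, 2 of 2 and 38 of 58. A match is a string of letters and no evidence of binding.

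For some genes the probes disagreed. Of 13 genes with more than 1 tested probe, 3 had probes that differed in call and 5 had probes that differed in sign. Ndufs4, an accessory subunit needed for the last step of complex I assembly, had 4 tested probes. The brightest, which represents the gene, changed by -0.11 and was not called. The other 3 fell, among them a probe that read 9.28, 9.87 and 9.41 on the knockout arrays, against 10.47, 10.79 and 10.81 on the wild-type arrays (log2 change -1.17, SE 0.21, limma adjusted p = 0.011). On that probe and on the other 2 that fell the groups did not overlap. Ndufa5 had a bright probe at 0.27, not called, and a dim one that read 6.20, 6.91 and 6.53 on the knockout arrays, against 7.23, 7.33 and 7.69 on the wild-type arrays and fell (log2 change -0.87, SE 0.24, limma adjusted p = 0.038). The assembly factor Ndufaf5 had a bright probe at 0.17, not called. Its dim probe was not above background in the knockout, was detected on all 3 wild-type arrays and was at least 1.29-fold lower in the knockout (limma adjusted p = 0.011); it entered the test through the wild-type arrays alone. Ndufb6 and Ndufv3 differed in sign between probes without a call. At the level of probes, 96 of 110 were tested, 16 fell and 5 rose (21.9%), where 28.6% of all probes tested were called, 18.5% lower and 10.1% higher. The call for Ndufs4 and Ndufa5 thus depends on the probe chosen. Respiratory chain genes also have many processed copies in the genome, from which a probe may take signal.

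By array, the medians of the complexes moved over a small range. The median deviation of all 80 genes from their own 6-array means was -0.05, 0.12 and -0.03 on the knockout arrays, against -0.12, 0.05 and 0.08 on the wild-type arrays. Knockout replicate 2 was the highest array and wild-type replicate 1 the lowest, so the groups overlapped. For complex I it was -0.03, 0.22 and -0.0024 in the knockout, against -0.21, 0.03 and 0.03 in wild type. Complex V ran from -0.13 on knockout replicate 1 to 0.12 on wild-type replicate 3. Over all genes tested the medians stayed between -0.02 and 0.04.

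**Figure D4:**
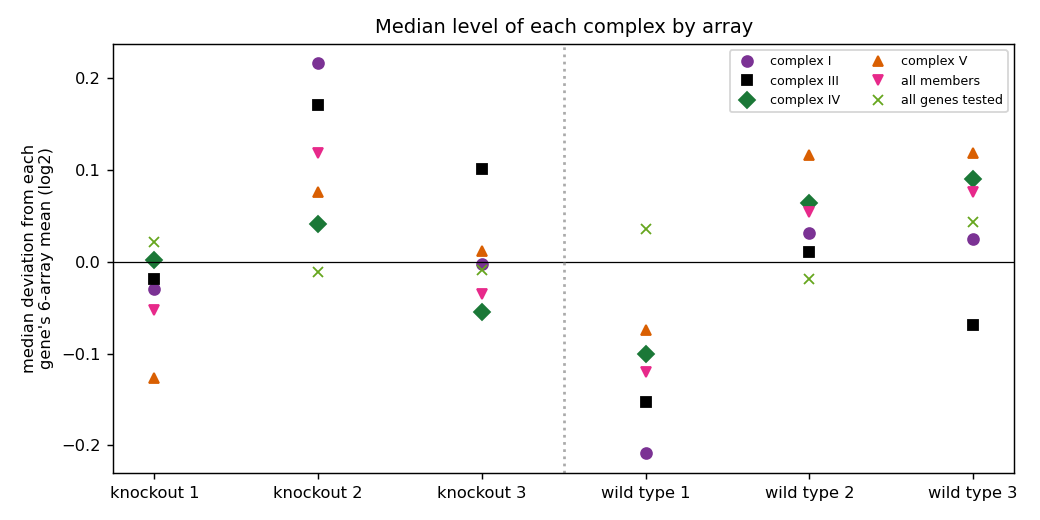
Median over genes of the deviation from each gene's mean over 6 arrays (vertical axis, log2) for complexes I, III, IV and V, for all 80 respiratory chain genes and for all 9973 genes tested, on the knockout arrays (left) and the wild-type arrays (right). Complex I spans -0.21 on wild-type replicate 1 to 0.22 on knockout replicate 2, and the groups overlap for each set shown.

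Nuclear genes that serve the chain from outside were examined by lists. Of all 9973 genes tested, 17.3% fell and 10.2% rose. Of 15 tested regulators of mitochondrial biogenesis, 4 fell and 0 rose by limma (5 lower and 0 higher at an unadjusted p under 0.05), with a median log2 change of -0.19. Tfam, which packages mitochondrial DNA and starts its transcription, read 9.42, 9.41 and 9.53 on the knockout arrays, against 10.72, 10.46 and 10.58 on the wild-type arrays. The group means lay about 1 log2 unit apart without overlap, and Tfam fell (log2 change -1.14, SE 0.14, limma adjusted p = 0.0046). Tfb1m, which methylates mitochondrial ribosomal RNA, fell (log2 change -1.39, SE 0.24, limma adjusted p = 0.010). Gabpa, the DNA-binding subunit of the factor GABP, read 7.05, 6.99 and 6.94 on the knockout arrays, against 8.21, 7.93 and 8.16 on the wild-type arrays, and fell (log2 change -1.10, SE 0.15, limma adjusted p = 0.0051). The fourth was Polg2, the accessory subunit of the mitochondrial DNA polymerase, whose change was -0.71 (SE 0.20, limma adjusted p = 0.045). B and T cell and cell division markers were lower on the same arrays, and their part in these values was not tested.

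**Figure D5:**
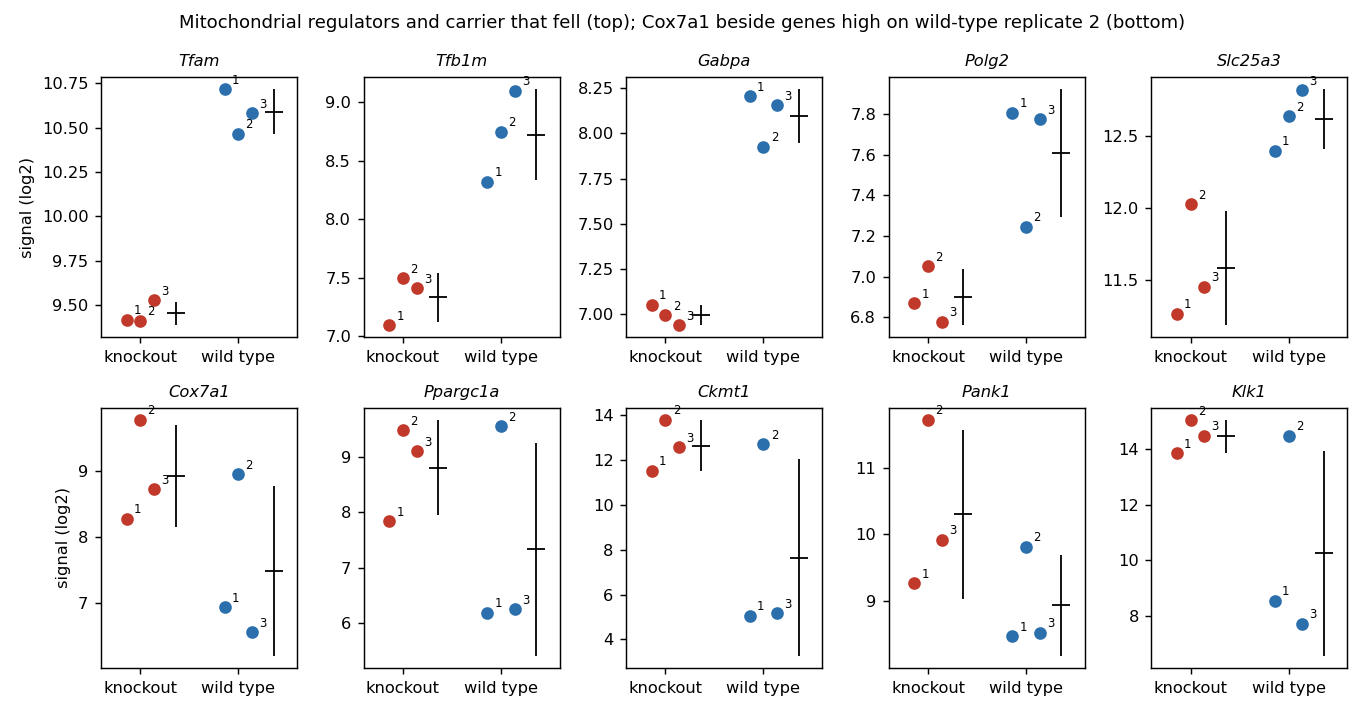
Normalized log2 signal (vertical axes, ranges differ between panels) on each knockout (left) and wild-type (right) array; numbers are replicates and bars the mean and SD of 3 arrays. The top row, Tfam, Tfb1m, Gabpa, Polg2 and Slc25a3, is lower on every knockout array. The bottom row sets Cox7a1 beside Ppargc1a, Ckmt1, Pank1 and the gland gene Klk1. These were chosen after values were seen, because they read higher on wild-type replicate 2 than on the other wild-type arrays, as Cox7a1 does.

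Of 27 tested assembly factors and translation activators outside the symbol rule, 8 fell and 1 rose. Among all genes tested 17.3% fell and 10.2% rose. The copper chaperone Cox11, counted among the 8, was detected on no knockout array and entered the test through the wild-type arrays alone. It is given as a bound, at least 2.04-fold lower (limma adjusted p = 0.0086). Coa6, another factor in copper delivery to complex IV, fell (log2 change -1.20, SE 0.18, limma adjusted p = 0.0066), and Timmdc1, a complex I assembly factor, fell (log2 change -1.12, SE 0.18, limma adjusted p = 0.0079). Tmem70, which helps to assemble ATP synthase, rose (log2 change 0.56, SE 0.15, limma adjusted p = 0.034). Mitochondrial ribosomal protein genes, 70 tested, had a median log2 change of -0.0015 with 9 that fell and 6 that rose. The largest of these changes were in Mrps18c, which fell (log2 change -1.53, SE 0.14, limma adjusted p = 0.0024), Mrps15 (log2 change -1.33, SE 0.24, limma adjusted p = 0.011) and Mrpl20 (log2 change -1.02, SE 0.18, limma adjusted p = 0.011), and in Mrpl38, which rose (log2 change 0.93, SE 0.20, limma adjusted p = 0.021).

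In the citric acid cycle list, 4 of 15 tested genes fell and 1 rose, where 17.3% of all genes tested fell and 10.2% rose. The dihydrolipoamide dehydrogenase Dld fell (log2 change -1.41, SE 0.21, limma adjusted p = 0.0068), the mitochondrial isocitrate dehydrogenase Idh2 fell (log2 change -1.31, SE 0.23, limma adjusted p = 0.011) and Suclg1, of succinyl-CoA synthetase, fell (log2 change -0.84, SE 0.17, limma adjusted p = 0.016). Dlst, of the oxoglutarate dehydrogenase complex, rose (log2 change 0.50, SE 0.14, limma adjusted p = 0.042). Of 6 tested genes in a list of carriers, porins, uncoupling proteins and mitochondrial creatine kinases, 2 fell and 0 rose by limma (3 lower and 0 higher at an unadjusted p under 0.05). The creatine kinase Ckmt1 had the highest log2 change of the list, 4.98, without a call. The 2 that fell were the phosphate carrier Slc25a3 (log2 change -1.03, SE 0.24, limma adjusted p = 0.025) and the ADP/ATP carrier Slc25a5 (log2 change -0.50, SE 0.14, limma adjusted p = 0.045), which feed ATP synthase.

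Among 15 tested genes of fatty acid oxidation 5 rose and 1 fell, where 10.2% of all genes tested rose and 17.3% fell. The median log2 change of the 15 was 0.22, and 0.03 against wild-type replicate 2 alone. The median deviation of the 15 from their 6-array means was 0.14, 0.05 and 0.20 on the knockout arrays, against -0.42, 0.01 and -0.14 on the wild-type arrays. Adipocyte markers were higher on the same knockout arrays, with mean levels of 11.58, 11.12 and 11.04 on the knockout arrays, against 10.56, 10.56 and 10.65 on the wild-type arrays, and their part in these values was not tested. Etfb, an electron carrier to ubiquinone, rose (log2 change 0.94, SE 0.19, limma adjusted p = 0.017), as did the thiolase Acaa2 (log2 change 0.86, SE 0.20, limma adjusted p = 0.024) and the short-chain dehydrogenase Acads (log2 change 0.82, SE 0.17, limma adjusted p = 0.017). Hadhb, of the trifunctional protein, fell (log2 change -1.10, SE 0.20, limma adjusted p = 0.011). Of 18 glycolysis genes 2 rose and 2 fell, with a median of 0.22. Besides Eno3, Aldoa rose (log2 change 0.76, SE 0.13, limma adjusted p = 0.011), while Gapdh fell (log2 change -1.24, SE 0.18, limma adjusted p = 0.0068) and the hexokinase Hk1 fell (log2 change -0.79, SE 0.21, limma adjusted p = 0.037). Each list is described by its counts, and no list was compared with other genes by a test.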

How the data were processed

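Per the file headers, the deposited non-normalized table pairs a linear intensity with a detection p-value for every probe on each array, and the submitters' processing notes name GenomeStudio 2011.1. The authors' second table holds log2 values that differed by at most 5.0e-07 from quantile-normalized log2 intensities and served as an alternative. Deposited p-values compare a probe with the negative control beads of its array. From the intensities, neqc (limma 3.58.1, R 4.3.3) gave background-corrected (normexp, offset 16), quantile-normalized log2 values. Probes with a detection p under 0.05 on at least 3 of 6 arrays, 14378 of 25697, were fitted as knockout minus wild type with lmFit and eBayes, two-sided, and Benjamini-Hochberg adjusted over all of them. The offset shrinks changes of dim probes, and the number of arrays limits the precision.

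A gene was represented by its brightest tested probe. Where no array of a group detected a probe, the fold is a lower bound, taken against the mean over arrays of the higher of the lowest detected signal and the probe's own. Gene names come from the platform annotation, and 23978 probes had 1 symbol and 1719 none. Named members are all called members (none of the complexes had over 5 in a direction), the brightest of each complex, the isoform pairs and members whose probes differ; from each pathway list, up to 3 called genes in the commoner direction and 1 in the other. Genes outside this rule, such as Atp5j2, Ndufa12, Uqcrc1, Uqcrc2, Cyc1, Ckmt1, Ppargc1a and Polg2, the markers and the genes given as not tested, were chosen after values were seen, as were the groups of subunits by role. The members and lists were chosen with earlier results of these data known. The fit was tested on simulated data. Alternatives were the authors' values, median scaling, other detection filters, an offset of 50, a trended robust prior, the replicate number as a block, each array left out, wild-type replicate 2 as the only wild-type array, and the median over probes.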

Additional observations from a re-analysis of the deposited data

How the results depend on the processing

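Of the 80 respiratory chain genes, 10 fell and 5 rose. The number that rose was 8 with the authors' values and 8 with a trended robust prior. Over all genes tested 10.2% rose in the fit used above, 10.6% with the authors' values and 10.8% with that prior. Leaving out 1 array gave 0 to 11 members that fell and 1 to 8 that rose. The 0 came without wild-type replicate 3, where 9 genes were lower at an unadjusted limma p under 0.05. Over all probes, 2664 fell and 1455 rose. These were 585 and 365 against wild-type replicate 2 alone, and 1323 to 3496 and 482 to 2802 with 1 array left out. With the replicate number as a block (replicate block), 10 members fell and 5 rose, of which 12 were among the 15 called without it. The deviations of same-numbered arrays from their group means correlated at 0.49, 0.32 and -0.31. Differently numbered arrays were not compared in this way, so whether the numbers pair the arrays cannot be told. All 15 called genes that could be fitted kept their direction under each alternative. Where arrays were left out, the separation of the groups fixed this in advance. With median scaling 13 kept their call. Changes of sign were met only in named genes without a call. With median scaling the log2 change of Atp5b was 0.047, of Cox4i1 0.12 and of Ndufa13 0.087. With 1 array left out it ran from -0.11 to 0.0048 for Cox4i1, -0.085 to 0.013 for Ndufa13, -0.087 to 0.49 for Cox6b2 and -0.086 to 0.37 for Cox8b. Against wild-type replicate 2 alone Cox7a1 was -0.026 and Cox8a -0.027. The cause was not tested. Cox4i2 was not tested when detection on all 6 arrays was required.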
